A study of Mus musculus with 8 samples.

Results

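The genes described here encode the receptors of the endocannabinoids and the enzymes that make and degrade these lipids, and their RNA was measured in somatostatin (SST) neurons sorted from the tuberal nucleus (TN) of the mouse hypothalamus. The 9 genes were chosen by name. They are the receptor genes *Cnr1* and *Cnr2*, the synthesis genes *Dagla*, *Daglb* and *Napepld*, and the degradation genes *Mgll*, *Abhd6*, *Abhd12* and *Faah*. Of 35968 genes in the annotation that matched the data, 24952 had any count and 15194 had enough counts to be tested, all 9 among them.

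Endocannabinoids are lipids that neurons make on demand from their membranes, often after calcium entry or activation of Gq-coupled receptors. They leave the postsynaptic cell and act backward on the presynaptic terminal, where the receptor CB1, encoded by *Cnr1*, lowers transmitter release. CB2, encoded by *Cnr2*, is best known from immune cells and microglia. The major brain endocannabinoid, 2-arachidonoylglycerol, is made from diacylglycerol by the lipases of *Dagla* and *Daglb* and is hydrolyzed mainly by monoacylglycerol lipase, from *Mgll*, with contributions from the hydrolases of *Abhd6* and *Abhd12*. The other well-known endocannabinoid, anandamide, belongs to the N-acylethanolamines, which the phospholipase of *Napepld* can release and the amide hydrolase of *Faah* breaks down. In the hypothalamus this system is known for its part in feeding and energy balance.

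Females were compared with males, with 4 mice of each sex and 1 library per mouse. All 8 mice were heterozygous for the Cre allele written as Ssttm2.1(cre)Zjh/J / + and had received AAV2-flex-tdTomato, a virus whose red fluorescent protein is made only after Cre recombination. The label therefore marks cells that expressed Cre from the *Sst* locus and took up the virus, and no unsorted cells were analysed here. Ages are not given in the labels, which also do not say whether the replicate numbers pair the mice. Each mouse had between 7827943 and 17648108 estimated counts in total. The gene *Lars2* alone held 9.28% to 34.3% of a mouse's counts, so the depth left for the other genes varied as well. Mice are compared in CPM, counts-per-million values after edgeR's TMM scaling, whose factors lay between 0.841 and 1.16, and genes in TPM, transcripts-per-million values, which are per length. A count of 3 corresponded to between 0.148 and 0.458 CPM, a limit that covers counting error only.

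The sorted cells carried neuronal RNA together with RNA of other cell types. *Sst* lay between 291 and 525 CPM, and *Gad1*, *Gad2* and *Slc32a1*, which mark GABAergic neurons, were detected in every mouse. Markers of glutamatergic neurons were present too, with 3 genes summing to 84.7 to 144 CPM in females and 54.9 to 139 CPM in males. Of these, *Slc17a6* was detected in every mouse and lay above *Slc32a1* in male 4, at 128 against 113 CPM. The summed level of 6 neuron markers was 2143 to 2654 CPM in females and 1605 to 1997 CPM in males, so the sexes did not overlap (2-sided exact permutation test, n = 4 each, p = 0.0286, which is the lowest value possible with 4 mice per sex). The sum of 8 microglia markers was 1624, 570, 286 and 815 CPM for females 1 to 4, against 651, 3179, 1833 and 3084 CPM for males 1 to 4 (exact permutation p = 0.114). All 8 of these markers were lower in females, none past an adjusted p of 0.05. Astrocyte markers summed to 189 to 698 CPM in females and 490 to 757 CPM in males, and oligodendrocyte markers to 426 to 1905 and 764 to 1709 CPM. Female 1 and male 2 stood apart in 6 genes of antigen-presenting myeloid cells, with 1311 and 3012 CPM where the other mice had 21.2 to 291 CPM, so results are also given without these 2 mice. In such bulk libraries, fewer cells of a type and less RNA per cell cannot be told apart.

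Among the 9 genes, *Abhd12* was by far the most abundant per length and *Cnr2* the least. *Abhd12* (chromosome 2 of mm10, 150832493 to 150904741, - strand) had 226 ± 21.3 TPM (SD, n = 8 mice), rank 602 among the 24952 genes with a count. Its level was 237, 225, 221 and 241 TPM for females 1 to 4, against 176, 234, 242 and 230 TPM for males 1 to 4. Male 1 was the lowest in TPM, and in CPM, the scale for comparing mice, it had 113 beside 120 in female 2. *Abhd12* lay above *Abhd6*, the next gene, in each of the 8 mice, by 3.64 on the log2 scale of TPM plus 0.1 (2-sided exact sign-flip permutation test within mice, adjusted p = 0.0134 over 36 pairs of genes).

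Next in order came 6 genes of which no neighboring pair differed beyond its spread, although *Abhd6*, the highest, lay above *Faah*, *Mgll*, *Dagla* and *Cnr1* (exact permutation test, adjusted p = 0.0245, 0.045, 0.0245 and 0.0134). *Abhd6* (chromosome 14, 8002902 to 8056763, + strand) had 18.2 ± 3.06 TPM and *Daglb* (chromosome 5, 143464584 to 143505942, + strand) 16.1 ± 5.87 TPM. *Faah* (chromosome 4, 115967145 to 116017926, - strand) had 13.4 ± 2.37 TPM and *Mgll* (chromosome 6, 88724412 to 88828360, + strand) 12.6 ± 4.76 TPM. *Dagla* (chromosome 19, 10245265 to 10304877, - strand) had 12.4 ± 2.90 TPM and *Cnr1* (chromosome 4, 33924593 to 33948831, + strand) 11.6 ± 3.00 TPM (SD, n = 8 for each). The adjusted p of neighbors in this order, from the same exact permutation test, lay between 0.381 and 0.828. *Napepld* (chromosome 5, 21662901 to 21701396, - strand) lay below *Cnr1*, with 5.77 ± 1.14 TPM, and *Cnr2* (chromosome 4, 135895394 to 135920207, + strand) below *Napepld*, with 0.476 ± 0.444 TPM (exact permutation test, adjusted p = 0.0134 for both steps). Of the 36 pairs, 25 passed an adjusted p of 0.05.

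**Figure D1:**
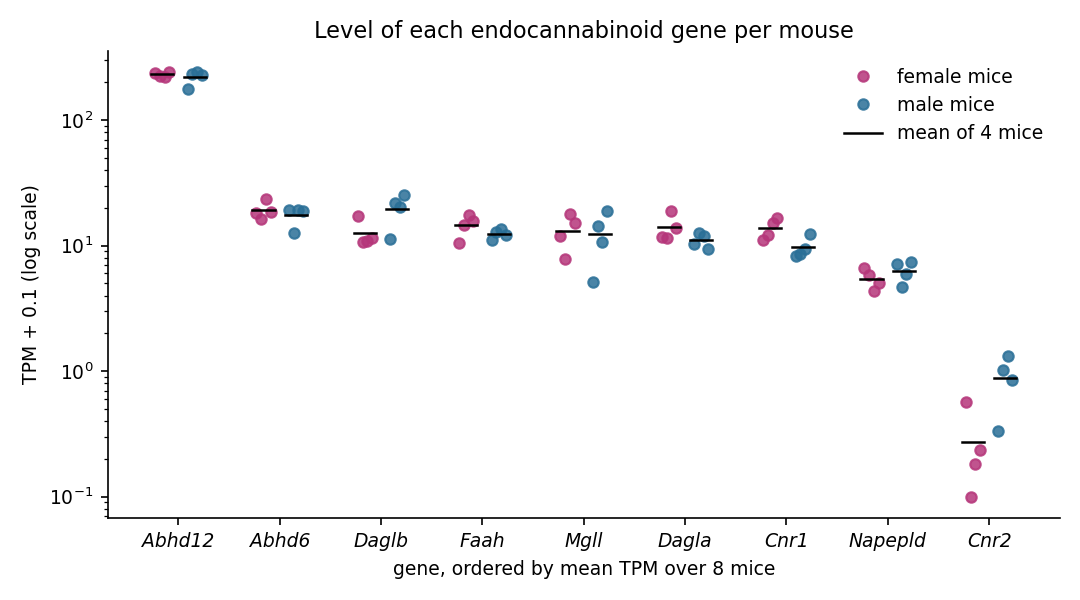
Level of each gene in each mouse as TPM plus 0.1 on a log axis, with females and males in separate columns and a line at the mean of the 4 mice of a sex. *Abhd12* stands between 176 and 242 TPM, 6 genes share the range near 12 to 18 TPM on average, and *Cnr2* lies lowest, with 1 female at 0.

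Not all of these values came from transcripts annotated as protein-coding. *Abhd12* had 47.1% of its TPM (38.2% to 58.3% over mice) but 81.8% of its estimated counts on its protein-coding transcript Abhd12-201. Most of the rest of the TPM was assigned to Abhd12-205, a transcript of 353 bases annotated for nonsense-mediated decay, the pathway that degrades RNAs with a premature stop. By counts Abhd12-205 held 7.19% of the gene, beside 5.18% on Abhd12-204 and 4.38% on Abhd12-203. Abhd12-205 held 99.2 ± 15.9 TPM from 873 counts, whereas Abhd12-201, of 1999 bases, held 106 ± 18.3 TPM from 9945 counts (SD, n = 8), so the short length of Abhd12-205 raised its TPM. It skips 1 exon of 83 bases, which is not a multiple of 3, between exons that both transcripts share. The skipped exon lies at chr2:150837352-150837434 on the - strand. Both junctions are shown because this exon separates the transcripts that held most of the level, with the exon in capitals and 30 bases of each neighboring exon in lower case, 5′ to 3′ from GENCODE M21 transcripts on mm10:
Abhd12-201: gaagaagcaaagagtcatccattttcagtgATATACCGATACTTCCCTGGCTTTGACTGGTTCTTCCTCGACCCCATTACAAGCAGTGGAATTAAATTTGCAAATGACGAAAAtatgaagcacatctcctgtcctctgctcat
Abhd12-205: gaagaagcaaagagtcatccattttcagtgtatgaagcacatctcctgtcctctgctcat

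Only 29 of the 323 stretches of 31 bases in Abhd12-205 were found in no other *Abhd12* transcript, so most reads on it could also be assigned to others. With protein-coding transcripts alone *Abhd12* still ranked first, at 106 ± 18.3 TPM.

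*Faah* had the lowest protein-coding share of the 9 genes. Its single protein-coding transcript, of 8 annotated, held 36.6% of the TPM (20.1% to 68.8% over mice) and 50.9% of the counts. The retained-intron transcript Faah-206 held 23.0% of the *Faah* counts and the processed transcript Faah-204 another 14.9%. On protein-coding transcripts alone *Faah* had 4.89 ± 1.24 TPM (SD, n = 8) which placed it between *Napepld* and *Cnr2* instead of between *Daglb* and *Mgll*. For *Mgll* the protein-coding share of TPM was 78.9%, for *Daglb* 89.7%, for *Dagla* 91.9% and for *Cnr1* 92.0%, and all annotated transcripts of *Abhd6*, *Napepld* and *Cnr2* are protein-coding. *Cnr1* counts were split between 2 protein-coding transcripts, with 64.5% on Cnr1-201 and 34.7% on another that starts with a different first exon, and the share of Cnr1-201 in the gene's TPM ran from 35.7% to 81.2% over mice.

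**Figure D2:**
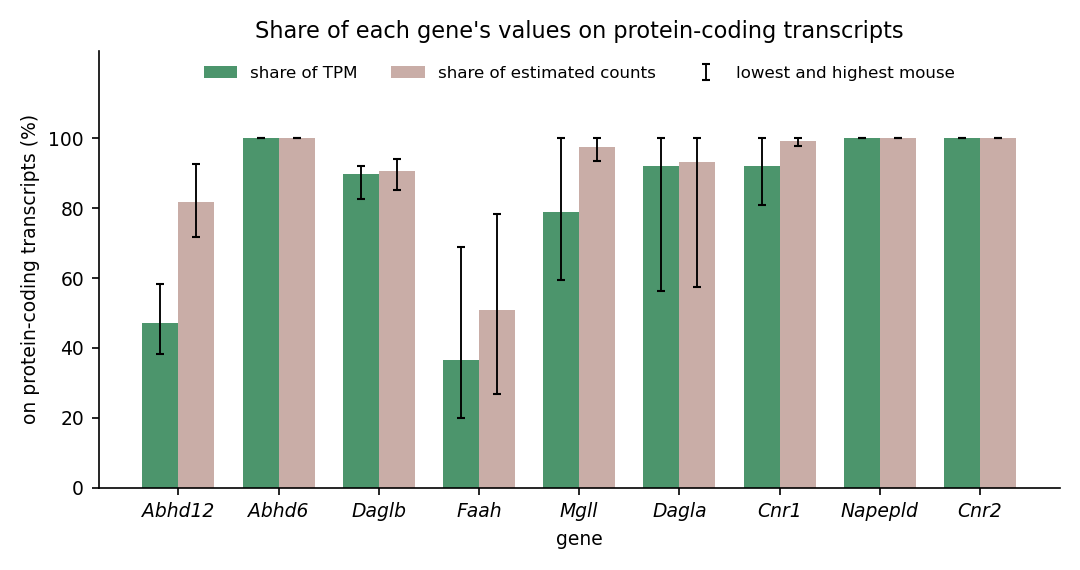
Share of each gene's TPM (green bars) and estimated counts (pale bars) on protein-coding transcripts, in percent, over the 8 mice together, with lines from the lowest to the highest mouse. *Faah* and *Abhd12* have the lowest shares of TPM, 36.6% and 47.1%.

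None of the 9 genes passed an adjusted p of 0.05 between females and males (quasi-likelihood test of edgeR, Benjamini-Hochberg adjusted over all genes tested), where 0.158% of all genes tested did, 0.112% higher in females and 0.0461% higher in males. DESeq2's Wald test also called 0 of them, against 7.86% of the genes it tested (4.38% with females higher, 3.48% with males higher), and gave *Cnr2* no adjusted p. At an unadjusted p under 0.05, edgeR gave 3 of the 9 genes, where 20.5% of all genes lay under that value. *Cnr1* was the 1 with the higher level in females (9.86% of all genes), and *Cnr2* and *Daglb* were those with the higher level in males (10.7%). In none of the 9 did the sexes separate without overlap, as they did in 10.4% of all genes, 6.48% with the females higher and 3.94% with the males higher. The median log2 fold change, female minus male, was 0.01 over the 9 genes and -0.004 over all genes tested.

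**Figure D3:**
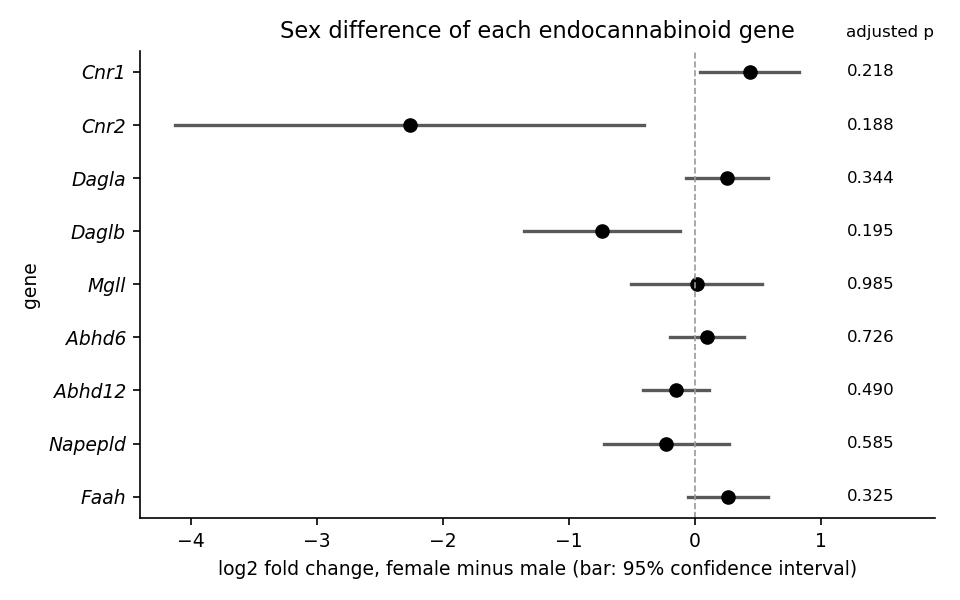
Log2 fold change, female minus male, of each gene (points) with its 95% confidence interval (lines) and the adjusted p from edgeR's test. *Cnr2* lies lowest, at -2.27, and the interval leaves out 0 for *Cnr1*, *Cnr2* and *Daglb*, whose adjusted p-values are 0.218, 0.188 and 0.195.

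Of the receptors, *Cnr1* had 33.2, 35.7, 43.1 and 49.4 CPM for females 1 to 4, against 25.6, 30.2, 25.4 and 38.8 CPM for males 1 to 4. Only male 4 reached into the range of the females. The fitted level in females was 1.35 times that in males, a log2 fold change of 0.43 (standard error, SE, 0.175, 95% confidence interval 0.04 to 0.82, edgeR adjusted p = 0.218, exact permutation p = 0.0857). Without female 1 and male 2 the log2 fold change of *Cnr1* was 0.52 (edgeR adjusted p = 0.216). The values of each mouse were deposited in 2 blocks, and *Cnr1* differed between them by a median of 0.41 on the log2 scale of TPM plus 0.1. Its log2 fold change between the sexes was 0.35 on the first block alone and 0.52 on the second (edgeR adjusted p = 0.452 and 0.101).

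*Cnr2* was near the limit of detection. It had 9, 0, 3 and 3 counts for females 1 to 4, against 6, 23, 29 and 13 counts for males 1 to 4, 86 in all. These correspond to 0.997, 0, 0.148 and 0.269 CPM in females and to 0.488, 2.10, 2.59 and 1.63 CPM in males, so that 3 females were at or under 3 counts and male 1 lay below female 1. The fitted log2 fold change was -2.27 (SE 0.827, 95% confidence interval -4.12 to -0.41, edgeR adjusted p = 0.188, exact permutation p = 0.0571). It was -3.37 without female 1 and -0.99 with the mean of the microglia markers as a covariate (edgeR adjusted p = 0.0628 and 0.842). *Cnr2* passed the filter on low counts, which asks for enough counts in 4 mice, with female 1 and males 2, 3 and 4, the mice where it is highest, and without female 1 and male 2 it was not tested.

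Among the synthesis enzymes, *Dagla*, whose lipase makes most 2-arachidonoylglycerol in adult brain, had 37.0, 38.9, 52.8 and 42.1 CPM for females 1 to 4. In males 1 to 4 it had 32.3, 42.9, 36.7 and 31.5 CPM, of which male 2 lay within the female range. The log2 fold change was 0.25 (SE 0.145, 95% confidence interval -0.07 to 0.58, edgeR adjusted p = 0.344). It was 0.41 without female 1 and male 2 (edgeR adjusted p = 0.184), 0.42 on protein-coding transcripts alone and 0.13 without female 3.

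*Daglb*, whose lipase is best known from microglia and macrophages, had 44.8, 29.3, 24.2 and 28.6 CPM for females 1 to 4, against 28.7, 61.5, 51.8 and 69.4 CPM for males 1 to 4. Males 2, 3 and 4 stood above every female, while male 1 stood among the 3 lower females. The log2 fold change was -0.74 (SE 0.276, 95% confidence interval -1.36 to -0.12, edgeR adjusted p = 0.195, exact permutation p = 0.0857). It was -0.87 without female 1 and male 2 (edgeR adjusted p = 0.162) and -0.09 with the mean of the microglia markers as a covariate. *Daglb* values are uncertain for another reason, since its exons overlap those of *Rac1* on the opposite strand over 2309 bases (chr5:143503634-143505942), 24.1% of its exon bases. In Daglb-201, 49.4% of the stretches of 31 bases occur in other genes on either strand. The library kit keeps strand, but whether the read assignment used it is not given in the sources used here. *Rac1* itself, which encodes a small GTPase, had 190 to 210 CPM in females and 207 to 230 CPM in males.

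Within each library, *Dagla* made up 40.4%, 52.0%, 63.4% and 54.3% of the summed TPM of *Dagla* and *Daglb* in females 1 to 4. In males 1 to 4 the share was 47.7%, 36.3%, 37.1% and 26.9%. The mean was 52.5% ± 9.44 in females and 37.0% ± 8.51 in males, a difference of 15.5 percentage points, with female 1 below male 1 (SD, n = 4 each, 2-sided exact permutation test, p = 0.0571). Without female 1 and male 2 the difference was 19.3 points (exact permutation p = 0.1, the smallest that 3 mice against 3 allow). The share carries the limits of *Daglb* given above, its overlap with *Rac1* and its smaller sex difference with the microglia covariate. It was not adjusted for marker levels.

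Of the enzymes that hydrolyze 2-arachidonoylglycerol, *Mgll* had 15.3, 11.9, 18.4 and 14.9 CPM for females 1 to 4, against 9.51, 16.5, 14.4 and 19.98 CPM for males 1 to 4. Males spanned the whole range of females, and the log2 fold change was 0.01 (SE 0.230, 95% confidence interval -0.51 to 0.53, edgeR adjusted p = 0.985) and from -0.16 to 0.17 with each mouse left out. *Abhd6* ranged from 19.6 to 23.1 CPM in females and from 15.9 to 21.4 CPM in males, and its log2 fold change was 0.09 (95% confidence interval -0.20 to 0.38, edgeR adjusted p = 0.726). Its transcripts share 11.1% to 17.7% of their stretches of 31 bases with the gene *Gm1833*. *Abhd12* ranged from 120 to 146 CPM in females and from 113 to 163 CPM in males, and its log2 fold change was -0.15 (95% confidence interval -0.42 to 0.11, edgeR adjusted p = 0.490), -0.27 on protein-coding transcripts alone and -0.011 with an offset for transcript length.

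The share of *Mgll* in the summed TPM of *Mgll*, *Abhd6* and *Abhd12* was 4.41%, 3.096%, 6.73% and 5.52% for females 1 to 4, against 2.52%, 5.45%, 3.93% and 7.03% for males 1 to 4. The means of 4.94% ± 1.55 and 4.73% ± 1.94 differed by 0.205 percentage points, less than the spread between mice (SD, n = 4 each, exact permutation p = 0.829). These shares depend on the TPM of the short Abhd12-205. On estimated counts, which are not per length, they were 9.08% ± 1.37 in females and 8.27% ± 1.36 in males, and on the TPM of protein-coding transcripts alone 7.75% ± 2.37 and 6.79% ± 1.94.

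**Figure D4:**
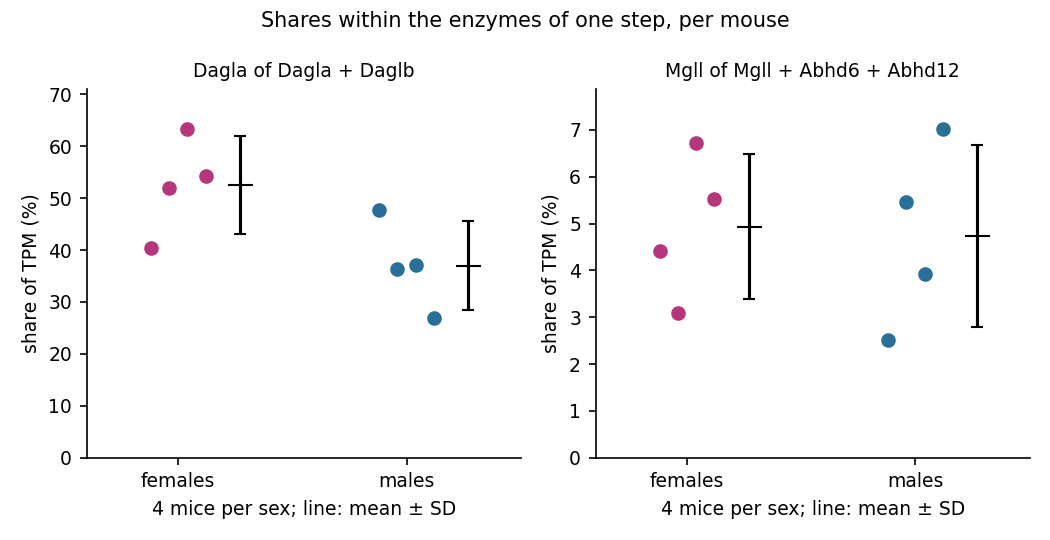
Share of *Dagla* in the TPM of *Dagla* and *Daglb* (left) and of *Mgll* in the TPM of *Mgll*, *Abhd6* and *Abhd12* (right), in percent, 1 point per mouse with the mean ± SD of each sex beside the points. The *Dagla* share averages 52.5% in females and 37.0% in males with overlapping ranges, and the males' *Mgll* shares, 2.52% to 7.03%, extend past those of the females at both ends.

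For the N-acylethanolamine enzymes, *Napepld* had 13.6, 13.9, 8.08 and 10.6 CPM for females 1 to 4, against 15.0, 10.2, 12.4 and 16.1 CPM for males 1 to 4. Males 1 and 4 stood above all females, and the log2 fold change was -0.23 (SE 0.220, 95% confidence interval -0.72 to 0.27, edgeR adjusted p = 0.585). *Faah* had 19.2, 18.5, 24.4 and 24.1 CPM for females 1 to 4, against 19.3, 15.4, 19.3 and 18.2 CPM for males 1 to 4. Females 3 and 4 stood above the other 6 mice, and the log2 fold change was 0.26 (SE 0.142, 95% confidence interval -0.06 to 0.58, edgeR adjusted p = 0.325). On protein-coding transcripts alone the log2 fold change of *Faah* was 0.0025 (edgeR adjusted p = 0.997), and with an offset for transcript length it was 0.14. The value for *Napepld* was -0.085 without female 3 and -0.43 without female 1 and male 2 (edgeR adjusted p = 0.877 and 0.369).

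With the mean of the neuron markers as a covariate, which separates the sexes by itself, the log2 fold change turned to 0.71 for *Daglb*, 0.40 for *Cnr2*, -0.19 for *Abhd6*, 0.33 for *Abhd12* and -0.19 for *Faah* (edgeR adjusted p between 0.490 and 0.988). With the microglia markers as covariate it was 0.076 for *Abhd12* and -0.0058 for *Abhd6*. *Mgll*, *Cnr1*, *Dagla* and *Napepld* kept their direction, with 0.50, 0.49, 0.14 and -0.022 under the neuron markers (edgeR adjusted p between 0.875 and 0.998). Under the microglia markers these genes had 0.26, 0.51, 0.17 and -0.15 (edgeR adjusted p between 0.629 and 0.954).

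Several of these genes varied between mice together with the marker genes of neurons or microglia. The log2 CPM of each gene was compared with the mean log2 CPM of each marker list over the 8 mice, 18 relations in all with exact permutation p-values adjusted over them. All values share the total of their library, and the marker levels differ between the sexes, so the relation is also given for deviations from the mean of each sex. With 4 mice of a sex, a relation within 1 sex alone was not computed.

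*Daglb* rose with the microglia markers, with r = 0.968 (exact permutation adjusted p = 0.00804) and Spearman's rho = 0.905 (exact permutation adjusted p = 0.0274, n = 8). Leaving out female 3 and male 4, the mice farthest from the median, gave r = 0.975, and leaving out female 1 and male 2 gave r = 0.959 (exact permutation p = 0.00833 for each). For deviations within sex r was 0.948 (exact permutation adjusted p = 0.0469). With the neuron markers *Daglb* had r = -0.905 and rho = -0.905 (exact permutation adjusted p = 0.0286 and 0.0274), and within sex r = -0.930 (exact permutation adjusted p = 0.0469). Without the mice farthest from the median, female 3 and male 2, that r was -0.848 and no longer passed 0.05 (exact permutation p = 0.0514).

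*Cnr2* had r = 0.871 and rho = 0.857 with the microglia markers (exact permutation adjusted p = 0.0286 and 0.0482, n = 8). Its r was 0.893 without female 3 and male 4, 0.834 without female 1 and male 2, and 0.786 within sex (exact permutation adjusted p = 0.125 for the last). *Cnr2* also had r = -0.865 with the neuron markers (rho = -0.833, exact permutation adjusted p = 0.0286 and 0.0554), r = -0.831 without female 3 and male 2, and r = -0.662 within sex (exact permutation adjusted p = 0.268). The mice through which *Cnr2* passed the filter, female 1 and males 2, 3 and 4, also had the highest microglia sums. Its other mice had only 0 to 6 counts, so the relations of *Cnr2* cannot be separated from the filter and the prior count. *Abhd12* had r = 0.877 and rho = 0.905 with the microglia markers (exact permutation adjusted p = 0.0286 and 0.0274), with r = 0.952 without female 3 and male 4, 0.844 without female 1 and male 2, and 0.871 within sex (exact permutation adjusted p = 0.0938). With the neuron markers *Abhd12* had r = -0.705, and -0.805 within sex (exact permutation adjusted p = 0.134 and 0.125).

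*Faah* had r = 0.825 and rho = 0.762 with the neuron markers (exact permutation adjusted p = 0.0286 and 0.110, n = 8). Without female 3 and male 2 its r was 0.574 (exact permutation p = 0.239), and without female 1 and male 2 it was 0.750 (exact permutation p = 0.114), neither past 0.05. Within sex r was 0.759 (exact permutation adjusted p = 0.125). With the microglia markers *Faah* had r = -0.706, and -0.530 within sex (exact permutation adjusted p = 0.134 and 0.458). For *Cnr1*, *Dagla*, *Mgll*, *Abhd6* and *Napepld*, no relation to either marker list passed an adjusted p of 0.05, and r lay between -0.548 and 0.572. Without female 1 and male 2, *Dagla* had r = 0.860 with the neuron markers and r = -0.731 with the microglia markers (exact permutation p = 0.025 and 0.0944, not adjusted), beside 0.552 and -0.502 over the 8 mice. The part of microglial or other non-neuronal RNA in the levels of *Daglb*, *Cnr2* and *Abhd12* was not tested.

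**Figure D5:**
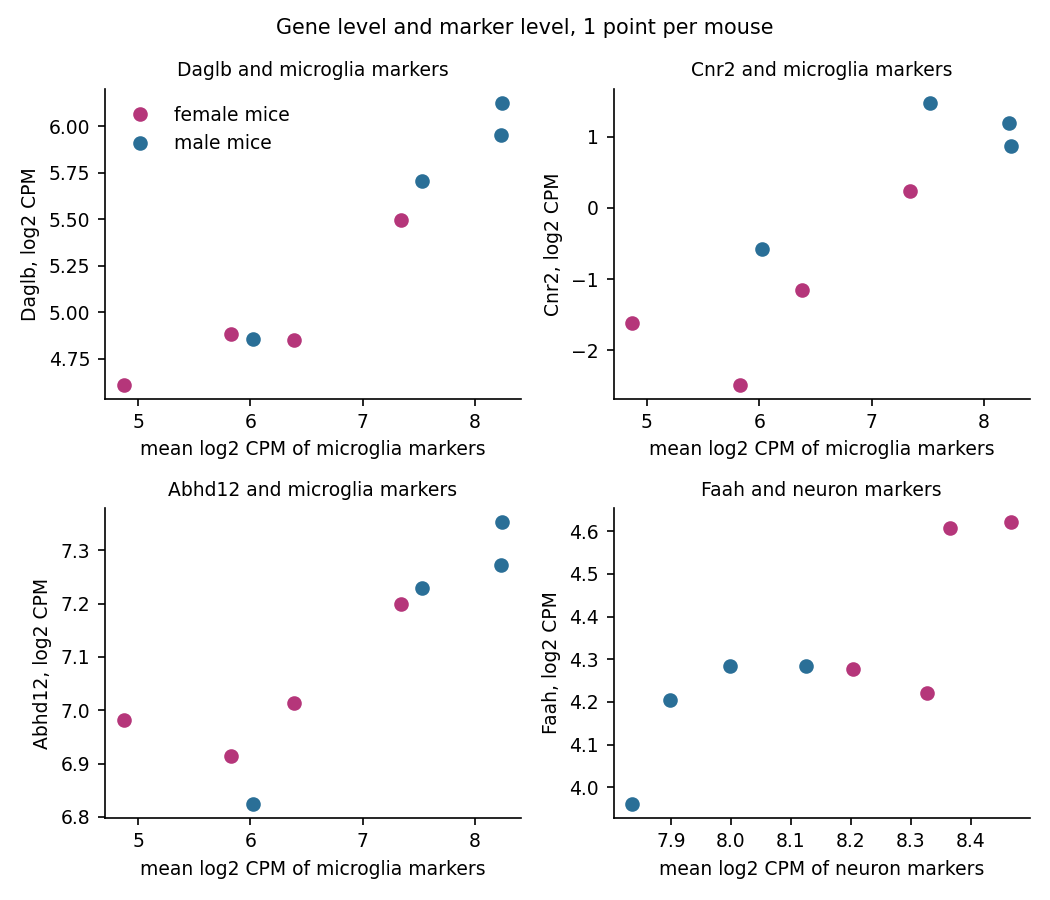
Log2 CPM of *Daglb*, *Cnr2* and *Abhd12* against the mean log2 CPM of the 8 microglia markers, and of *Faah* against that of the 6 neuron markers, with 1 point per mouse. Over the 8 mice together *Daglb* is higher where the microglia markers are higher (r = 0.968). On that axis female 1 lies near male 3, and male 1 lies between females 2 and 4.

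The other genes of the pathway were taken as 7 lists of 53 genes, of which 46 were tested. None passed an adjusted p of 0.05 with edgeR. At an unadjusted p under 0.05, 10 had the higher level in females and 6 in males, where 9.86% and 10.7% of all genes tested did. DESeq2 called 6 higher in females and 2 higher in males, against 4.38% and 3.48% of all genes it tested. The median log2 fold change over the 46 genes was 0.09, and 26 of them were positive, beside -0.004 and 7506 of 15194 over all genes tested. All 6 neuron markers were also higher in females, with sums that did not overlap, and their part in these values was not tested.

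Among 10 genes of other routes to N-acylethanolamines, 8 were tested and 2 had an unadjusted p under 0.05, both with the higher level in males, as did 10.7% of all genes tested. *Gde1*, a phosphodiesterase that releases N-acylethanolamines, had 136 ± 13.1 TPM, and *Inpp5d*, an inositol phosphatase best known from blood cells and microglia, had 48.4 ± 34.0 TPM (SD, n = 8). Their log2 fold changes were -0.12 and -1.30 (edgeR adjusted p = 0.437 and 0.235). Of 4 other hydrolysis and oxidation genes, *Naaa*, an acid amidase for N-acylethanolamines, had 24.5 ± 4.59 TPM, and *Ptgs2*, the cyclooxygenase that can oxidize endocannabinoids, had 20.5 ± 17.1 TPM. None of the 3 tested had an unadjusted p under 0.05 by edgeR, and DESeq2 called none.

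All 4 intracellular lipid carriers were tested and none had an unadjusted p under 0.05 by edgeR or was called by DESeq2. *Fabp3*, a fatty acid binding protein, had 83.4 ± 20.3 TPM and *Scp2*, sterol carrier protein, 81.2 ± 8.72 TPM (SD, n = 8). Of 6 other lipid receptors only 2 had enough counts to be tested. *Gpr55* had 1.39 ± 0.583 TPM and *Gpr18* 1.33 ± 0.719 TPM, with adjusted p = 0.633 and 0.774 in edgeR's test. *Trpv1*, the capsaicin receptor that anandamide can open, had 2 counts in all 8 mice together. No mouse therefore reached the 3 counts taken as the limit of detection in 1 mouse.

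All 5 genes for partners of CB1 were tested, from *Cnrip1* with 48.96 ± 11.2 TPM upward. *Gprasp1*, whose protein sorts receptors to lysosomes, had 455 ± 84.4 TPM and *Sgip1*, whose protein slows CB1 internalization, had 162 ± 37.3 TPM (SD, n = 8). Their log2 fold changes were 0.18 and 0.31 (edgeR adjusted p = 0.435 and 0.188). Among 10 genes for G proteins and effectors of CB1, *Gnao1*, the Go alpha subunit, had 528 ± 118 TPM and *Gnai2*, a Gi alpha subunit, 315 ± 49.3 TPM. *Gnao1* had a log2 fold change of 0.23 (edgeR adjusted p = 0.123, DESeq2 adjusted p = 0.0121) and *Gnai2* one of -0.45 (edgeR adjusted p = 0.0943, DESeq2 adjusted p = 0.00371). The smallest edgeR adjusted p of the 46 genes, 0.0831, belonged to *Adcy1*, an adenylyl cyclase chosen here after its value was seen. Its log2 fold change was 0.63 (DESeq2 adjusted p = 0.00624). Of the 10 genes for G proteins and effectors, DESeq2 called 2 higher in females and 2 higher in males, against 4.38% and 3.48% of all genes it tested. At an unadjusted p under 0.05 by edgeR, 4 were higher in females and 2 in males, where 9.86% and 10.7% of all genes tested were.

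The 14 genes listed for diacylglycerol supply hold receptors, Gq proteins and phospholipases. They also hold scaffold genes and *Camk2a*, which are not themselves part of that supply. The median log2 fold change of the list was 0.13, with 11 of 14 positive. Over all genes tested the median was -0.004 and 7506 of 15194 were positive. *Camk2a*, a calcium-dependent kinase that can inhibit the *Dagla* lipase, had 186 ± 45.8 TPM, and *Plcb1*, a phospholipase C, had 86.7 ± 33.0 TPM (SD, n = 8). *Camk2a* had a log2 fold change of 0.42 (edgeR adjusted p = 0.133, DESeq2 adjusted p = 0.0226) and *Plcb1* one of 0.68 (edgeR adjusted p = 0.106, DESeq2 adjusted p = 0.00566). DESeq2 called 4 genes of this list, *Camk2a* among them, all with the higher level in females, as it did 4.38% of all genes. The neuron markers, 6 of 6 higher in females, differ in the same direction.

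The profile of *Cnr1* over the 8 mice, as log2 CPM centered on its mean, was nearest to that of *Tle2*, with a root mean square difference of 0.0868 on the log2 scale, followed by *Hs3st4* (0.121) and *Slitrk5* (0.125), where the median over the 10010 genes compared was 0.368. Nearest to *Dagla* were *Gm4631* (0.0740), *Naa40* (0.0784) and *Sorcs2* (0.0855), against a median of 0.283. These genes were picked as the nearest of 10010 over 8 mice, so they lie below the median by selection. Whether they share more than that with *Cnr1* or *Dagla* was not tested.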

How the data were processed

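The authors sequenced total RNA of sorted cells with a stranded kit and assigned reads to mm10 transcripts with kallisto (version 0.46.2 in the submitters' processing notes). They deposited estimated counts, which are not normalized and need not be whole, and TPM, in 2 blocks per mouse. Counts of both blocks were summed per gene through GENCODE M21 and rounded, and TPM were averaged over the blocks. Unmatched transcripts, with 0.429% to 0.611% of a mouse's counts, were left out.

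The sexes were compared over all genes with edgeR 4.0.16 (TMM, default filter by sex, quasi-likelihood test, Benjamini-Hochberg) in R 4.3.3 with limma 3.58.1, after tests on simulated data, and with DESeq2 1.42.0, the tool the paper names, as an alternative. Log2 CPM used a prior count of 2. Python 3.11.15, numpy 2.4.6, pandas 2.3.3 and scipy 1.17.1 served for exact 2-sided permutation tests. Members and lists were chosen with earlier results of these data known. Pathway genes named are the 2 of each list with the highest mean TPM, since none passed, besides *Adcy1*, *Trpv1* and *Cnrip1*, chosen after their values were seen, and nearest profiles used genes of at least 10 mean CPM, where those of *Mgll* are not reported here. P-values measure only the spread between these mice. The values of shares and marker relations without female 1 and male 2, the relations within sex, and the counts of 31-base stretches were added after seeing the data.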

Additional observations from a re-analysis of the deposited data

How the results depend on the processing

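None of the 9 genes passed an adjusted p of 0.05 in any alternative run with edgeR or DESeq2. The lowest adjusted p-values were 0.0516 for *Daglb* without male 1 and 0.0628 for *Cnr2* without female 1. Of 185 refits of single genes, 11 changed direction. These were *Mgll*, with -0.050 on the second block alone and a range of -0.16 to 0.17 with each mouse left out, and, with the neuron marker mean as a covariate, *Daglb* (0.71), *Cnr2* (0.40), *Abhd6* (-0.19), *Abhd12* (0.33) and *Faah* (-0.19). With the microglia marker mean as a covariate *Abhd6* (-0.0058) and *Abhd12* (0.076) did so. The cause was not tested. *Cnr2* was left out by the filter in 4 alternatives, which gave it no value.

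The count of genes past 0.05 over all genes, 24 in edgeR, was 1052 with DESeq2, 13 with an offset for transcript length, 14 and 9 with the microglia and neuron marker means as covariates, 62 without female 1 and male 2, and 8 to 415 with each mouse left out, the highest without female 1 (415) and male 1 (411). A replicate block left 1 such gene. The labels do not say whether same-numbered mice belong together. Their deviations from the mean of their sex had correlations of -0.396, -0.156, 0.0356 and 0.0719, which cannot exclude a shared batch. In the blocked test the *Dagla* share had p = 0.250 and the *Mgll* share p = 0.875 (exact sign-flip permutation, which cannot go below 0.125).

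The *Dagla* share difference was 14.3 points on the first block alone and 16.9 points on the second (exact permutation p = 0.114 and 0.0286). With each mouse left out it was 11.9 to 19.6 points (exact permutation p between 0.0571 and 0.143). The *Mgll* share difference was -0.190 points on the second block alone and -0.533 to 0.971 with each mouse left out.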
